A study of Mus musculus with 12 samples.

Results

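Transcripts of the interleukin-12 and interleukin-6 cytokine families were examined in cultured mouse peritoneal macrophages, with and without bacterial lipopolysaccharide (LPS). The members were chosen by name as Il12a, Il12b, Il23a, Il27, Ebi3, Il6, Lif, Osm and Il6st, which are 9 of the 16920 genes in the count tables. The study asked what the loss of Ythdf1, a protein that binds m6A (a methyl mark on adenosines of mRNA), does to the inflammatory response of macrophages. There were 12 RNA sequencing libraries, 3 each of wild-type (WT) cells with PBS, WT cells with 1 µg/mL LPS, Ythdf1 knockout (KO) cells with PBS and KO cells with 1 µg/mL LPS, all taken after 6 h. All donors were young adult mice on a C57BL/6 background, and cells of all 4 groups had been drawn into the peritoneum by an irritant and kept in culture overnight. The knockout was carried by the whole mouse, not by macrophages alone.

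Several facts of the libraries bear on what follows. Total counts lay between 21546274 and 22017005 per library, and levels are given as CPM (the count relative to the TMM-scaled library size). A count of 3, used here as the floor, equalled 0.105 to 0.187 CPM, and floors and counting intervals cover counting error only. Ythdf1 mRNA was not lost in the libraries labelled KO. With PBS it lay between 41.9 and 45.0 CPM in WT and between 55.4 and 58.1 CPM in KO. With LPS it lay between 194 and 212 CPM in WT and between 192 and 205 CPM in KO. "KO" therefore means the label throughout. All 8 macrophage markers examined were above the floor, and their summed level lay between 17170 and 19943 CPM over all libraries. Single markers differed between the genotypes all the same. With LPS, Mertk (-1.24 ± 0.07), Csf1r (-0.53 ± 0.11) and Cd68 (-0.21 ± 0.05) were lower in KO on the log2 scale (edgeR, adjusted p = 1.91e-09, 0.00115 and 0.00377), Cd14 was higher (0.68 ± 0.06, 6.47e-07) and 4 were not called. With PBS, Adgre1 was lower (-0.33), Cd14 was higher (0.20) and 6 were not called. Markers of T cells and B cells each summed to no more than 2.93 CPM in any library. Summed mast cell markers lay between 0.644 and 0.904 CPM in WT PBS, 1.02 and 1.37 in WT LPS, 0.175 and 0.456 in KO PBS, and 2.82 and 3.44 in KO LPS. Of these markers Kit alone was above the floor, with a KO difference of 1.54 ± 0.23 under LPS (edgeR, adjusted p = 6.25e-05), whereas Cpa3, Mcpt4 and Tpsb2 were at or under it and Fcer1a was not in the tables. Mesothelial markers summed to between 9.08 and 11.2 CPM in WT and between 4.85 and 9.02 CPM in KO libraries. Itgax, an integrin of macrophages and dendritic cells, held at least 91.4% of the summed level of 8 dendritic cell markers. Its mean in WT was 329 ± 9.86 CPM (SD, n = 3) with PBS and 333 ± 27.1 CPM with LPS, whereas in KO it was 163 ± 3.20 and 159 ± 14.8 CPM. The other 7 dendritic cell markers together lay at or below 2.53 CPM with PBS and between 11.1 and 14.1 CPM with LPS. Summed fibroblast markers lay between 75.1 and 132 CPM in WT and between 32.9 and 69.5 CPM in KO libraries. Summed neutrophil markers lay between 90.0 and 108 CPM in WT and between 117 and 156 CPM in KO libraries, with Ly6g and Ngp not in the tables and S100a9 at or under the floor. Of these, Mmp8 (log2 difference 0.56 with PBS, 0.41 with LPS) and Cxcr2 (0.68, 0.38) were called higher in KO under both treatments. S100a8 was called with LPS (0.49, groups overlapping) and not with PBS (0.22). Skeletal muscle markers lay between 15.1 and 33.4 CPM in 8 libraries, but at or under 0.249 CPM in all KO LPS libraries and in replicate 3 of KO PBS. The part of these differences in the results below was not tested. In bulk RNA, fewer cells making a transcript and less of it per cell cannot be told apart.

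Both families signal through paired receptor chains, Janus kinases and STAT factors. IL-12 is a dimer of the p35 chain (Il12a) with p40 (Il12b), IL-23 pairs the same p40 with p19 (Il23a), and IL-27 pairs p28 (Il27) with EBI3. Each dimer thus needs transcripts of both of its chains. IL-6, LIF and oncostatin M (Osm) are single chains that share the signalling receptor gp130 (Il6st), and macrophages are a known source of IL-6, IL-12 and IL-27 after contact with bacteria.

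The members were scattered over the genome, except for one pair. On GRCm38.p6, Osm (gene 18413, chr11:4236785-4241026) and Lif (gene 16878, chr11:4257568-4272514) lay on the plus strand with 16541 bases between them, and Il12b (gene 16160, chr11:44400063-44414677, plus strand) lay farther along the same chromosome. Il12a (gene 16159) lay at chr3:68690644-68698550 on the plus strand, and Il6 (gene 16193) at chr5:30013114-30019975 on the plus strand. Il23a (gene 83430) lay at chr10:128296140-128298084 and Il27 (gene 246779) at chr7:126589009-126595035, both on the minus strand. Ebi3 (gene 50498) lay at chr17:55952623-55957022 and Il6st (gene 16195) at chr13:112464070-112506860, both on the plus strand. Il27 overlaps Apobr, which is also in the tables, and 11 of its 12 deposited values carried decimals, so its reads may be shared between the genes. Ebi3 overlaps Zfp119b and Gm16712, 1 of which is in the tables, and Il6 overlaps A230098N10Rik, which is not. Il12b carried decimals in 5 of 12 libraries and the other 7 members, Ebi3 and Il6 among them, in none.

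Transcript sequences of the members were described to show what they share beyond the pathway. AUUUA, written ATTTA in the gene sequence, is the core of AU-rich elements, which proteins such as tristetraprolin (Zfp36) are known to bind in cytokine mRNAs. In the 3′ UTR of the main GENCODE M21 transcript, 7 of the 9 members held 6 or more copies, compared with 15.1% of the 16287 genes with a protein-coding transcript. Il12a, Il12b, Il23a, Il6 and Osm held 6 copies each, Lif 7 and Il6st 9, whereas Il27 held 5 and Ebi3 1. These 3′ UTRs differed in length, from 245 bases in Ebi3 and 285 in Il27 to 3180 in Lif and 5641 in Il6st. Per kb of 3′ UTR, Il27 was the densest of the 9 (17.5 copies), and Lif (2.20) and Il6st (1.60) were the least dense. The share over genes was not matched for length, so the copy counts do not rank the members by density. The 30 bases richest in the motif are shown for both chains of IL-12, for Il27 and for Il6, as examples from each family, on GRCm38 and 5′ to 3′ on the strand of the gene, with the motif in capitals.
Il12a, chr3:68698436-68698465, plus strand: ctATTTAtATTTATTTAttttctATTTAtt
Il12b, chr11:44413473-44413502, plus strand: ATTTAagtaATTTAtgtATTTAttaATTTA
Il27, chr7:126589087-126589116, minus strand: gatATTTAtttcttggatATTTATTTAttt
Il6, chr5:30019684-30019713, plus strand: atttttaATTTAttgataATTTAaataagt
Il12a and Il12b, the chains of IL-12, each had 4 copies within their 30 bases, Il27 had 3 and Il6 had 2. GGACT, a common setting of m6A, occurred from 0 times in Il27 to 3.68 times per kb in Il23a, with a median over genes of 1.06 per kb. Only 0.761% of genes reached the density of Il23a, 4.53% reached that of Ebi3 (2.60 per kb), and Il12b was at 2.06 per kb. Il12a (0.789 per kb) and Il6 (0.876 per kb) lay below the median. A match in letters is not a methylated or bound site.

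Promoter windows from RefSeq (GRCm38.p6, 250 bases before to 50 after the start) matched 6 members, Il12a with 2 starts. No sequence was held for Il23a, Il27 and Osm. Both strands of the 7 windows were searched for TATAAA (the TATA box), TGANTCA (AP-1), TTNNGNAA (C/EBP), GGGNNTTTC (part of an NF-kB site) and GAAANNGAA (part of an interferon response element). Of all 32851 windows in the table, 13.6% held the TATA box, 7.81% the AP-1, 40.7% the C/EBP, 4.36% the NF-kB and 8.56% the interferon element letters. The Il6 window held 3 of the 5 motifs, namely AP-1 from 249 to 243 bases before the start, C/EBP from 128 to 121, and the NF-kB part from 44 to 36. The Lif window held AP-1 from 228 to 222 bases before the start, and the windows of Il12a, Il12b, Ebi3 and Il6st held none of the 5 in these letters. The upstream bases of the windows with a match are shown with matches in capitals, beside that of Il12b, which like Il6 rose with LPS from near 0 but held no match.
Il6, chr5:30012864-30013113, plus strand: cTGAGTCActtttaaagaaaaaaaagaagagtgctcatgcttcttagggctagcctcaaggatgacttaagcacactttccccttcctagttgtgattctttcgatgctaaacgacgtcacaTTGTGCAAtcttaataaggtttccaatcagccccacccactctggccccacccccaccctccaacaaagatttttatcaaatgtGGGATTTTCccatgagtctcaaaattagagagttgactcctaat
Lif, chr11:4257318-4257567, plus strand: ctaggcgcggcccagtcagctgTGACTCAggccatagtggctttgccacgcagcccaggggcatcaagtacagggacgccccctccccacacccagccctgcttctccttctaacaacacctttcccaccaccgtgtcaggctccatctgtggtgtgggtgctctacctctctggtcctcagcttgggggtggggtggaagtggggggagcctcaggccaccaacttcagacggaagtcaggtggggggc
Il12b, chr11:44399813-44400062, plus strand: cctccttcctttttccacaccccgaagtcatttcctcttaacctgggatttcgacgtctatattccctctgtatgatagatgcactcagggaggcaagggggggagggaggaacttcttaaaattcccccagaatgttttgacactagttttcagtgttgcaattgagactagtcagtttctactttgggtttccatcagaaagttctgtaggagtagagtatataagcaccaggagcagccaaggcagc

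LPS raised all 8 cytokine transcripts and lowered the shared receptor Il6st, in WT and in KO libraries. The number called by edgeR was 9 of 9 in each genotype (8 higher, 1 lower), where 76.7% of the 12064 genes tested were called in WT (36.5% higher) and 79.9% in KO (38.8% higher). Groups were free of overlap for all 9, as for 78.2% of genes in WT and 81.3% in KO. Il12a, Il12b, Il23a, Il6 and Lif passed the filter on low counts only through the LPS libraries and so had to differ, and these counts are no support.

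**Figure D1:**
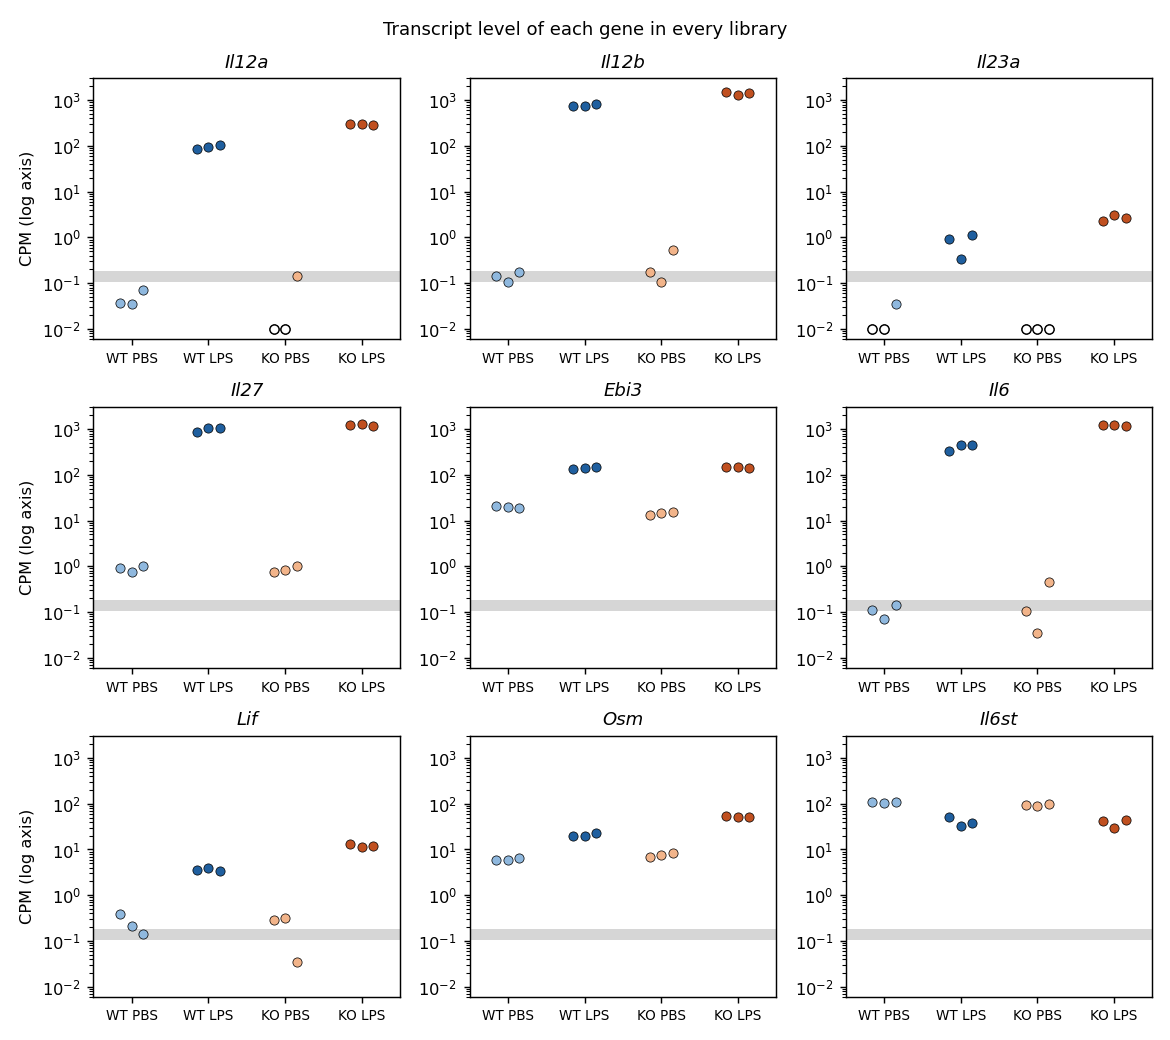
CPM on a log axis of each member in the 12 libraries, 1 point per library, ordered within a group by replicate number. The grey band is the level of 3 counts, and open circles at the bottom are libraries with 0 counts. The 8 cytokine genes rose with LPS and Il6st fell.

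Il12a, the p35 chain of IL-12, was close to absent without LPS, with 1, 1 and 2 counts in WT PBS and 0, 0 and 4 in KO PBS. With LPS it reached 84.3, 97.1 and 103 CPM in WT and 301, 308 and 292 CPM in KO libraries. Every KO LPS library lay above every WT LPS library. The level with LPS was 1979.9 times that with PBS in WT (95% counting interval 773 to 7269) and 6405 times in KO (2501 to 23511). KO exceeded WT under LPS by 1.67 ± 0.09 on the log2 scale (SE, edgeR quasi-likelihood test, adjusted p = 2.54e-09).

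Il12b, the p40 chain of both IL-12 and IL-23, had 4, 3 and 5 counts in WT PBS and 5, 3 and 15 in KO PBS. With LPS it was at 764, 750.2 and 824 CPM in WT and 1501, 1300.1 and 1475 CPM in KO libraries, again without overlap. The rise with LPS was 5431-fold in WT (counting interval 3109 to 10511) and 5284-fold in KO (3521 to 8336). KO exceeded WT under LPS by 0.87 ± 0.09 (edgeR, adjusted p = 3.10e-06). Only 0.751% of all genes had a higher mean CPM in KO LPS.

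Il23a, the p19 chain particular to IL-23, stayed scarce. It had 0, 0 and 1 counts in WT PBS, 16, 6 and 20 in WT LPS, 0 in all KO PBS libraries and 38, 50 and 43 in KO LPS. The LPS level was 66.8 times that with PBS in WT (11.3 to 2699), and in KO at least 25.5-fold higher than the floor of 3 counts per library. These folds have different bases and are not set against each other, since against the same floor the WT level with LPS was 7.41 times as high. Its mean level with LPS was 0.80 ± 0.41 CPM in WT and 2.69 ± 0.36 CPM in KO. The KO value was higher by 1.74 ± 0.33 on the log2 scale, and the groups did not overlap. Il23a passed the filter on low counts only through the KO LPS libraries, where it is highest, so this difference is a description and no test of it is given. The WT fold rested on the single count in WT PBS replicate 3.

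Il27, the p28 chain of IL-27, had 25, 21 and 29 counts in WT PBS and 22, 24 and 29 in KO PBS. With LPS it was at 868, 1054 and 1085 CPM in WT and 1202, 1278 and 1194 CPM in KO. It thus rose 1118-fold in WT (892 to 1421) and 1393-fold in KO (1111 to 1771). Its KO excess under LPS was small, 0.29 ± 0.08 (edgeR, adjusted p = 0.00619), although the groups did not overlap. With scaling by library totals alone it was 0.20 and no longer passed (adjusted p = 0.0581).

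Ebi3, the partner of p28, was the most abundant subunit without LPS. It was at 20.7, 19.4 and 18.9 CPM in WT PBS and 13.2, 14.6 and 15.6 CPM in KO PBS, so that every KO library was lower (-0.45 ± 0.07, edgeR, adjusted p = 0.000361). With LPS it was at 137, 143 and 149 CPM in WT and 149, 151 and 142 CPM in KO, and these groups overlapped. The difference under LPS was 0.04 ± 0.06 (adjusted p = 0.627), and its sign turned to -0.03 with upper-quartile scaling and -0.05 with totals alone. It rose with LPS by 2.86 ± 0.07 in WT and 3.35 ± 0.07 in KO, and the interaction of genotype with LPS was 0.49 ± 0.10 (edgeR, adjusted p = 0.00245).

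Il6 is the founding ligand of the gp130 family and an acute inflammatory cytokine. It had 3, 2 and 4 counts in WT PBS and 3, 1 and 13 in KO PBS. It reached 339, 445 and 451 CPM in the WT libraries and 1250.1, 1237 and 1149.7 CPM in the KO libraries with LPS, where the lowest KO library was well above the highest WT library. The rise with LPS was 3827-fold in WT (2015 to 8370) and 6084-fold in KO (3799 to 10444). KO exceeded WT under LPS by 1.56 ± 0.13 (edgeR, adjusted p = 1.00e-06).

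Lif, a cytokine that signals through gp130 and the LIF receptor, was at low levels throughout. It had 11, 6 and 4 counts in WT PBS, 63, 70 and 59 in WT LPS, 8, 9 and 1 in KO PBS and 217, 183 and 187 in KO LPS. The LPS level was 14.5 times that with PBS in WT (9.24 to 24.0) and 57.1 times in KO (35.8 to 97.0). KO exceeded WT under LPS by 1.72 ± 0.17 (edgeR, adjusted p = 1.39e-06), with no overlap. The interaction was 1.97 ± 0.57 (edgeR, adjusted p = 0.0255). It rested on the few PBS counts, and it was 1.46 (adjusted p = 0.181) without WT PBS replicate 1, 2.07 (0.0504) without WT PBS replicate 2 and 1.46 (0.0519) without KO PBS replicate 3.

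Osm, which encodes oncostatin M, was the only single-chain ligand of the 3 above 1 CPM with PBS. It was at 5.97, 5.90 and 6.51 CPM in WT PBS and 6.93, 7.51 and 8.25 CPM in KO PBS. With LPS it was at 19.8, 19.8 and 22.6 CPM in WT and 54.8, 51.2 and 52.2 CPM in KO. Genotype separated the libraries under both treatments. The KO excess was 0.30 ± 0.09 with PBS (adjusted p = 0.0252) and 1.35 ± 0.08 with LPS (adjusted p = 2.51e-09, both edgeR). The PBS call was lost without WT PBS replicate 1 (0.31, adjusted p = 0.0664), WT PBS replicate 2 (0.28, 0.0879) or KO PBS replicate 3 (0.26, 0.0931). The rise with LPS was 1.76 ± 0.09 in WT and 2.80 ± 0.08 in KO, and the interaction was 1.04 ± 0.12 (edgeR, adjusted p = 2.62e-05).

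Il6st, the gp130 receptor chain that carries the signal of IL-6, LIF and oncostatin M and is part of the IL-27 receptor, moved the other way. It was at 111, 102 and 107 CPM in WT PBS and 94.9, 89.4 and 100.2 CPM in KO PBS, and fell to 50.5, 32.4 and 37.2 CPM in the WT libraries and 41.1, 29.0 and 43.9 CPM in the KO libraries with LPS. The change with LPS was -1.41 ± 0.16 in WT (adjusted p = 3.49e-06) and -1.32 ± 0.16 in KO (adjusted p = 6.27e-06, both edgeR). The KO difference did not pass with PBS (-0.17 ± 0.15, adjusted p = 0.461) or LPS (-0.08 ± 0.16, adjusted p = 0.745). In a fit to the PBS libraries alone it did pass at -0.17 (adjusted p = 0.00388).

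Under LPS, 6 of the 8 members other than Il23a, which only the KO LPS libraries carried past the filter, were called higher in KO and none lower, where 41.4% of all genes tested were called and 22.1% were called higher. The same 6 were free of overlap between the genotypes, as were 45.6% of genes. The excess was between 1.35 and 1.74 on the log2 scale for Il12a, Il23a, Il6, Lif and Osm, 0.87 for Il12b and 0.29 for Il27. The median over the 8 was 1.11, beside 0.00 over all genes tested. With PBS, by contrast, 2 of 9 were called (Osm higher, Ebi3 lower) and 3 were free of overlap, beside 25.3% and 48.1% of genes. The interaction was called for Lif, Osm and Ebi3, all 3 with a larger rise in KO, where 18.0% of genes were called and 9.78% in this direction. It was not called for Il12a (1.69, adjusted p = 0.344), Il6 (0.70, 0.690), Il27 (0.32, 0.402), Il12b (-0.01, 0.978) or Il6st (0.09, 0.838, all edgeR). For Il12a, Il12b and Il6 it was set by a handful of PBS counts, and none is given for Il23a, which was at 0 in all KO PBS libraries.

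**Figure D2:**
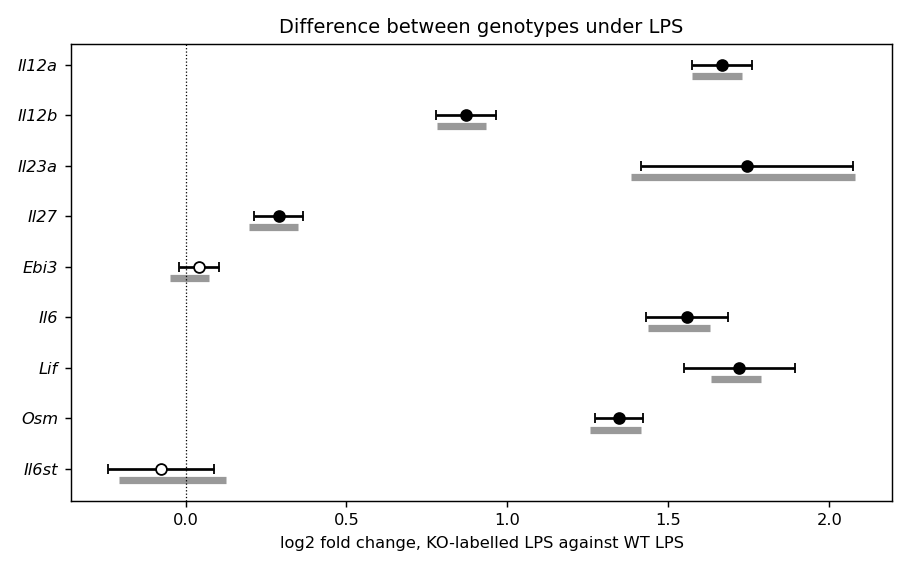
Log2 fold change of KO LPS against WT LPS for each member, as the edgeR value with its SE (points and whiskers, n = 3 against 3; filled where the adjusted p was below 0.05). Il23a passed the filter on low counts only through KO LPS, so its point is a description and its fill is not to be read as a test. Grey bars give the range over the other processing settings and left-out libraries. The values of Il12a, Il23a, Il6, Lif and Osm lie above those of Il12b and Il27, and Ebi3 and Il6st lie around 0.

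Replicate 3 of KO PBS stood apart in 3 of the members. It held 15 of the 23 Il12b counts, 13 of the 17 Il6 counts and all 4 Il12a counts of its group, but 1 of the 18 Lif counts and no Il23a count. Without it, the rise with LPS in KO was 10164-fold for Il12b (counting interval 5158 to 23543) and 17298-fold for Il6 (6756 to 63489), and Il12a, then at 0 in the remaining KO PBS libraries, was at least 2856-fold higher than the floor of 3 counts per library. Without it, the KO difference with PBS went from 0.88 to -0.01 for Il12b and from 0.86 to -0.56 for Il6, none of them past the threshold. The interaction then became 4.89 for Il12a (adjusted p = 0.0280), 0.88 for Il12b (adjusted p = 0.399) and 2.11 for Il6 (adjusted p = 0.131). Among WT LPS libraries, replicate 1 was the lowest for Il12a, Il27, Ebi3 and Il6 and the highest for Il6st. The 6 calls of KO against WT under LPS named above were kept without any 1 of the 12 libraries.

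To compare the subunits of the 3 dimers, the log2 ratio of their counts was taken within each library, where scaling has no part. The p40 to p35 ratio (Il12b to Il12a) with LPS was 3.18, 2.95 and 3.01 in WT and 2.32, 2.08 and 2.34 in KO. The means were 3.04 ± 0.12 and 2.24 ± 0.14 (SD, n = 3), a difference of -0.80, and the groups did not overlap. Thus p40 exceeded p35 in all LPS libraries, by less in KO. With PBS, on few counts, the values were 1.31 ± 0.24 in WT and 2.68 ± 0.84 in KO, again without overlap. In KO PBS replicates 1 and 2, however, Il12a was at 0, and the ratio was set by the 0.5 added to each count. No order of the genotypes is therefore read from the PBS values. In counts per kb of transcript, there were 5.91, 5.04 and 5.24 Il12b transcripts per Il12a transcript in WT LPS and 3.25, 2.76 and 3.30 in KO LPS.

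The p40 to p19 ratio (Il12b to Il23a) was far wider, at 10.04 ± 0.83 in WT LPS and 9.04 ± 0.30 in KO LPS, and the groups did not overlap (difference -0.996, or -0.52 without WT LPS replicate 2). Per kb of transcript this was 578, 1536 and 511 Il12b per Il23a in WT and 450.2, 297 and 386 in KO. The outlying WT value came from replicate 2, which had 6 Il23a counts. The p35 to p19 ratio (Il12a to Il23a) was 6.99 ± 0.91 in WT LPS and 6.80 ± 0.18 in KO LPS, and these groups overlapped (exact p = 1). Its difference of -0.20 turned to 0.33 without WT LPS replicate 2.

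The chains of IL-27 changed places. The Ebi3 to Il27 log2 ratio was 4.44 ± 0.25 in WT PBS and 4.02 ± 0.10 in KO PBS, and -2.80 ± 0.12 in WT LPS and -3.06 ± 0.04 in KO LPS. The ratio thus fell by 7.24 with LPS in WT and changed by -7.07 in KO. Per kb, Il27 stood at 7.15, 8.34 and 8.22 times Ebi3 in WT LPS and at 9.09, 9.59 and 9.52 times in KO LPS, whereas with PBS Ebi3 was the more abundant in all 6 libraries. KO was lower in this log2 ratio by 0.42 with PBS and 0.25 with LPS, each without overlap. The p40 to EBI3 ratio (Il12b to Ebi3) was 2.45 ± 0.05 in WT LPS and 3.27 ± 0.14 in KO LPS, higher in every KO library. Of the 20 comparisons of ratios, each was tested by an exact two-sided permutation test of 3 against 3 libraries. The smallest p that this allows is 0.10, which all comparisons free of overlap gave (0.133 after Benjamini-Hochberg adjustment over the 20), so none could pass 0.05.

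**Figure D3:**
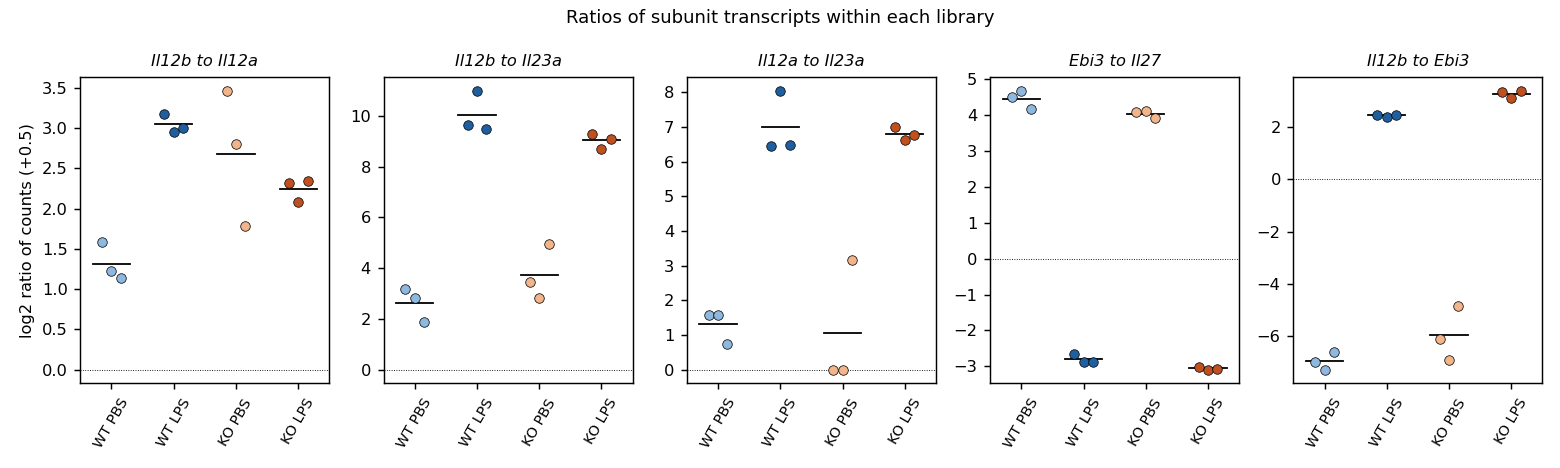
Log2 ratio of counts (0.5 added to each) of 5 pairs of subunits within each library, with 1 point per library and a line at the mean of the 3. With LPS, the Il12b to Il12a and Ebi3 to Il27 ratios are lower in every KO library than in every WT library, and Ebi3 to Il27 crosses 0 between PBS and LPS.

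Levels were compared between genes as CPM per kb of the main transcript. In WT LPS the order was Il27 (981 ± 115), Il12b (401 ± 20.2), Il6 (361 ± 55.0), Ebi3 (124 ± 5.16), Il12a (74.7 ± 7.43), Osm (9.13 ± 0.72), Il6st (4.61 ± 1.08), Lif (0.907 ± 0.08) and Il23a (0.587 ± 0.30). Il12b and Il6 overlapped, as did Lif and Il23a. In KO LPS, Il27 (1200 ± 45.5) was followed by Il6 (1063 ± 47.9), Il12b (733 ± 56.2), Il12a (237 ± 6.24), Ebi3 (128 ± 4.19), Osm (23.2 ± 0.81), Il6st (4.38 ± 0.91), Lif (2.99 ± 0.28) and Il23a (1.98 ± 0.27), with no overlap between neighbours. Il12a and Ebi3 thus stood in the opposite order in KO and WT. The place of Il6 depends on its length, since all its annotated exons together are 2428 bases against 1141 for the main transcript. With the longer figure it was at 169 in WT and 499 in KO, below Il12b in both. With PBS, Ebi3 (17.0 in WT, 12.5 in KO) and Il6st (12.3 and 10.9) led, and every other member was at or below 3.63 CPM per kb in each library.

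**Figure D4:**
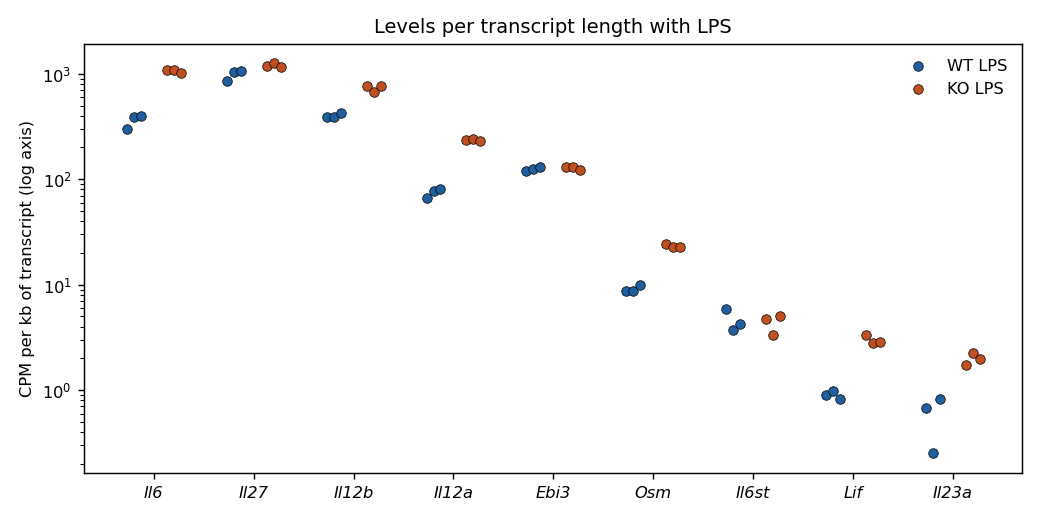
CPM per kb of the main transcript in the LPS libraries on a log axis, 1 point per library. Il6 and Il12a are shifted most between WT and KO among the abundant members, while Ebi3 and Il6st overlap.

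The list of receptor chains of these families held 9 genes, among them Il11ra1 and Cntfr, which bind ligands that are not members. Of the 9 chains, 8 were tested, and Cntfr had no more than 2 counts in any library. With LPS, 4 rose and 2 fell in each genotype, beside 76.7% of all genes called in WT and 79.9% in KO. Of the 4, Il12rb1 and Il23r passed the filter on low counts only through the LPS libraries and so had to rise. Between genotypes, 1 was higher and 4 were lower in KO with PBS, and 3 were lower (Il12rb1, Il27ra and Il11ra1) and none was higher with LPS. Of all genes, 25.3% were called with PBS and 41.4% with LPS, so the count of chains called with LPS is near that over all genes. The median log2 difference under LPS was -0.18 over the 8 chains.

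Il12rb1, the receptor chain shared by IL-12 and IL-23, differed most. It had 4, 7 and 9 counts in WT PBS, 155, 184 and 192 in WT LPS, 2, 1 and 5 in KO PBS and 24, 26 and 28 in KO LPS. The means with LPS were 10.1 ± 0.99 CPM in WT and 1.60 ± 0.13 CPM in KO, a difference of -2.65 ± 0.18 (edgeR, adjusted p = 1.88e-08). Il12b and Il12a, the chains of IL-12, were higher in the same KO libraries.

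Il27ra, the chain that binds IL-27 together with gp130, was lower in KO with PBS (1.67 ± 0.34 against 3.81 ± 0.55 CPM) and with LPS (1.93 ± 0.25 against 3.53 ± 0.81 CPM). The log2 differences were -1.19 ± 0.18 and -0.87 ± 0.22 (edgeR, adjusted p = 0.000218 and 0.00420). Il6ra, which binds IL-6, fell with LPS from 32.9 ± 2.71 to 6.60 ± 0.45 CPM in WT and from 44.6 ± 1.3 to 6.89 ± 0.69 CPM in KO. It was higher in KO with PBS by 0.44 ± 0.07 (adjusted p = 0.000320) and not with LPS (0.06 ± 0.11, adjusted p = 0.683).

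Osmr, the specific chain for oncostatin M, was lower in KO with PBS (0.785 ± 0.14 against 1.54 ± 0.09 CPM; -0.97 ± 0.19, adjusted p = 0.00168). Under LPS it was at 3.14 ± 0.04 and 4.09 ± 0.57 CPM, free of overlap, but the difference of -0.38 ± 0.15 did not pass (adjusted p = 0.0592). It did pass with upper-quartile scaling (-0.45, adjusted p = 0.0335), with totals alone (-0.47, 0.0246) and without WT LPS replicate 1 (-0.47, 0.0349). Lifr, its counterpart for LIF, rose with LPS from 2.48 ± 0.39 to 10.8 ± 2.45 CPM in WT and from 3.32 ± 0.71 to 10.8 ± 0.21 CPM in KO, and its KO difference under LPS was 0.00 ± 0.15 (adjusted p = 0.999). Il23r, the second chain for IL-23, had at most 1 count in any PBS library and between 21 and 42 in the LPS libraries. Il12rb2, the second chain for IL-12, lay between 5.38 and 8.09 CPM in all libraries. Its KO difference with PBS of -0.37 ± 0.11 (adjusted p = 0.0274) was lost in 5 of the 12 fits that leave out a library and with totals alone.

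**Figure D5:**
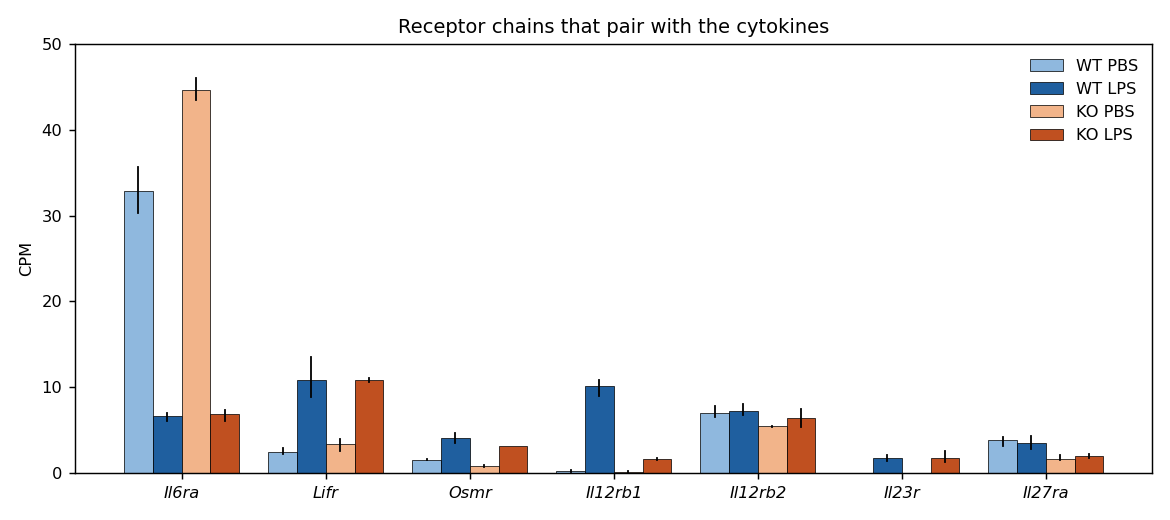
Mean CPM of 7 receptor chains in the 4 groups (bars, n = 3) with the lowest and highest library (lines). Il12rb1 is highest in WT LPS, and Il6ra falls with LPS in both genotypes.

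Clcf1, Jak2, Cebpb and Irf8 are named below because, among the other pathway genes that were called under LPS with groups free of overlap, they had the largest KO differences, so those differences are a description. Of the other ligands, Il11, Ctf1 and Ctf2 were not tested. Clcf1, a gp130 ligand that acts through the CNTF receptor, was at 5.55 ± 0.15 CPM (WT) and 8.50 ± 0.67 CPM (KO) with LPS (log2 difference 0.61 ± 0.12, SE), after 0.478 ± 0.07 and 0.364 ± 0.08 CPM with PBS. Cntf did not pass under LPS (0.69 ± 0.54, adjusted p = 0.335).

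Of 10 kinases, STAT factors and inhibitors downstream of the receptors, 9 rose and 1 fell with LPS in each genotype, where 76.7% (WT) and 79.9% (KO) of all genes were called. Under LPS, 3 were higher and 2 lower in KO, which is close to the 41.4% called over all genes. Jak2, a kinase of the IL-12, IL-23 and gp130 receptors, rose from 24.1 ± 2.33 to 496 ± 19.2 CPM in WT and from 32.0 ± 3.22 to 836 ± 67.1 CPM in KO. It was higher in KO by 0.75 ± 0.08 under LPS. Also called under LPS, and named here after their values were seen, were the inhibitor Socs3 (0.33), which was higher, and the inhibitor Socs1 (-0.23) and the kinase Tyk2 (-0.26), which were lower. Stat3, the main STAT factor of gp130, was not called (-0.14 ± 0.08, adjusted p = 0.178). The median log2 difference of the 10 under LPS was 0.05.

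Of 10 known regulators of Il6 and Il12b transcripts, all 10 were called higher with LPS in WT and in KO with TMM scaling (the KO call of Irf8 turns with the scaling, as given below), where 36.5% of all genes were called higher in WT and 38.8% in KO. Il10 passed the filter on low counts only through the LPS libraries and so had to rise. Under LPS, 6 of the 10 were higher and 2 lower in KO, with a median difference of 0.26, where 41.4% of all genes were called and 22.1% were called higher. The higher ones included activators of transcription (Nfkbiz 0.44, Rel 0.50 and Cebpb), enzymes and proteins that break down these mRNAs (Zc3h12a 0.48, Zfp36 0.18) and the inhibitory cytokine Il10 (0.35). The lower ones were Irf8 and Arid5a (-0.42), which stabilises Il6 mRNA. Apart from Cebpb and Irf8, which were chosen among called genes for the size of their KO difference, these were named after their values were seen. Cebpb, a transcription factor of Il6, was at 761 ± 70.4 CPM (WT) and 1114 ± 13.1 CPM (KO) with LPS (log2 difference 0.55 ± 0.09). Irf8, a transcription factor known to drive Il12a and Il12b, went the other way. It was at 667 ± 34.2 CPM (WT) and 207 ± 8.72 CPM (KO) with LPS (log2 difference -1.69 ± 0.06), after 144 ± 4.47 and 149 ± 1.49 CPM with PBS. In KO its change with LPS was 0.47 with TMM, 0.11 with upper-quartile scaling and -0.33 with totals alone, so that its direction there is not settled.

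The genes with the pattern most like each member other than Il6st were found by the root mean square difference of log2 CPM, each centred on its own mean over the 12 libraries. For Il12b they were Cxcl10 (0.366), Nos2 (0.460) and Edn1 (0.471), and for Il6 they were Il1b (0.407), Cxcl10 (0.582) and Edn1 (0.639). For Il12a they were Ptgs2 (0.503), Il1b (0.585) and Edn1 (0.675). Il27 was closest to Ifi205 (0.236), Acod1 (0.295) and Lipg (0.339), and Ebi3 to Tapbp (0.0664), Rnf114 (0.0970) and Carhsp1 (0.129). Osm was closest to Hp (0.192), Thbs1 (0.216) and Ly6c2 (0.219). The sparse Lif was closest to Adora2b (0.536), Epha4 (0.654) and Rnf225 (0.686), and Il23a to Pax4 (0.565), Mycl (0.574) and Flrt3 (0.616). These distances are a description over libraries that share groups and depth.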

How the data were processed

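The 12 libraries were single-end BGISEQ-500 reads of RNA from cultured peritoneal macrophages. The authors deposited expected counts (estimated counts per gene, not scaled between libraries). The paper's methods name STAR and HTSeq, whereas the submitters' processing notes list Bowtie2, RSEM 1.3.1 and build GRCm38.p6, and the deposited values carry decimals (24.6% to 26.9% of those in each table). For the irritant, starch broth is given in the series record and thioglycollate in the paper. Replicates are called independent samples, with no animal or batch given.

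Values were rounded, filtered with filterByExpr (12064 of 16920 genes kept), scaled by TMM and fitted in edgeR 4.0.16 (R 4.3.3, limma 3.58.1) by a quasi-likelihood model with 1 mean per group over all 12 libraries. P-values are two-sided and Benjamini-Hochberg adjusted over the 12064 genes, and called below 0.05. The 5 comparisons were LPS against PBS in each genotype, KO against WT under each treatment, and their interaction. Counting intervals are exact at 95%. The members and lists were chosen with earlier results of these data known. The genes named by rule are all members, the receptor chains that pair with them, of the other pathway genes called under LPS with groups free of overlap the 4 with the largest KO difference, and the 3 genes closest to each cytokine in pattern. Further pathway genes, such as Il11ra1, Socs3, Stat3 and Il10, are named outside this rule, some of them after their values were seen. Alternatives were RLE and upper-quartile scaling, library totals alone, no filter, a stricter filter, unrounded values, DESeq2 1.42.0, fits to the libraries compared, a replicate block and leaving out each library. The fit was tested on simulated counts in which all groups shared the WT LPS means, apart from genes changed in KO LPS. That setting held no LPS response, so it does not test the scaling between treatments or the sparse PBS counts. Transcript models were those of GENCODE M21, and promoters and gene positions those of RefSeq, both on GRCm38. Protein sequences were not analysed here. Some genes of the pathway lists are not reported here.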

Additional observations from a re-analysis of the deposited data

Results flagged for a closer look

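The following 3 members differed between the genotypes in their response to LPS by the test of the interaction itself. The difference of the log2 changes, KO minus WT, was 1.97 for Lif (adjusted p = 0.0255), 1.04 for Osm (adjusted p = 2.62e-05) and 0.49 for Ebi3 (adjusted p = 0.00245, all edgeR). The Lif value rested on 1 to 11 counts in each PBS library and did not pass without WT PBS replicate 1 (1.46, adjusted p = 0.181), WT PBS replicate 2 (2.07, 0.0504) or KO PBS replicate 3 (1.46, 0.0519). Lif and Osm ended higher in KO under LPS, whereas Ebi3 began lower in KO with PBS and ended at a level that was not distinguishable from WT.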

How the results depend on the processing

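Of 44 results on the members, 30 kept direction and side of the threshold under every alternative, as did 873 of 906 values. Relative to TMM, totals alone shifted the median log2 change with LPS by -0.66 in WT and -0.80 in KO. The number of genes called for KO against WT under PBS was 4627 in a fit to those libraries alone and 1992 to 3896 with 1 library left out (3058 with all). Members called there were 1 to 2 with 1 library left out, and in the other comparisons 9 (LPS, both genotypes), 7 (KO against WT under LPS, including Il23a, which only the KO LPS libraries carried past the filter) and 2 to 3 (interaction). A filter of at least 10 counts in 6 libraries removed Il23a. With the replicate block the members called were 9 (LPS in WT), 9 (LPS in KO), 2 (PBS), 7 (LPS, again with Il23a) and 3 (interaction). Whether the numbers pair the samples is not known, since no animal is given. Same-numbered libraries correlated at -0.0619 to 0.107, and not every library correlated best with its own number. Such correlations within groups of 3 cannot show whether libraries share an animal. Signs turned mainly where counts were few. For KO against WT under PBS, Il12a was 0.0179 and Il27 0.0195 with totals alone. With 1 library left out the ranges were -3.22 to 0.53 for Il12a, -0.0120 to 1.29 for Il12b, -0.142 to 0.0873 for Il27, -0.56 to 1.37 for Il6 and -0.62 to 0.26 for Lif. Under LPS, Ebi3 was -0.0260 with upper-quartile scaling and -0.0475 with totals, and Il6st ranged from -0.21 to 0.13. The interaction ranged from -0.42 to 0.88 for Il12b and from -0.0401 to 0.29 for Il6st, which was -0.0452 with totals. Irf8 in KO with LPS was -0.33 with totals. The log2 ratio of Il12a to Il23a, KO against WT under LPS, ranged from -0.46 to 0.33. The cause was not tested. Depth limits Il23a throughout and Il12a, Il12b, Il6 and Lif with PBS.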
